A study of Canis lupus familiaris with 34 samples.

Results

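Mast cells are armed by the high-affinity IgE receptor. Its alpha chain, FCER1A, binds IgE, its beta chain, MS4A2, amplifies the signal, and its gamma chain, FCER1G, carries the signal into the cell. When antigen crosslinks the bound IgE, the Src family kinase LYN phosphorylates the signalling motifs (ITAMs) of the beta and gamma chains, SYK docks on them, and SYK phosphorylates the adaptors that open the route to calcium release and degranulation. ENPP3 (CD203c) is a cell surface ectoenzyme, known in humans as an activation marker of basophils and mast cells, and was described with them. The 6 genes were listed by symbol, each to be represented by its Transcript cluster (the gene-level probe set of the array) with the highest mean. The platform annotation held 5 of the 6 symbols, with 1 Transcript cluster each, of 16295 genes with a single symbol. FCER1G was found neither by symbol nor by gene number and is not analysed here, so the gamma chain of the receptor has no value below.

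Expression was measured on Canine Gene 1.1 ST arrays in FFPE biopsies of 34 primary cutaneous mast cell tumours (MCTs), each from a different dog. The 18 metastasising (M) MCTs came from dogs of 10 breeds, aged 8.17 ± 2.81 years (mean ± SD; 9 female and 9 male, 12 neutered, 7 Labrador Retrievers), that died or were euthanased because of MCT metastasis, whatever adjuvant treatment they had received. The 16 non-metastasising (NM) MCTs came from dogs of 8 breeds, aged 5.5 ± 2.28 years (5 female and 11 male, 9 neutered, 3 Labrador Retrievers), that had no adjuvant treatment and were alive over 1000 days after surgery. The groups thus differed in age, in the share of males and in the share of Labrador Retrievers as well as in outcome. The study also reports that the NM specimens were older FFPE material on average, and that specimen age did not correlate with RNA integrity. A biopsy holds skin and inflammatory cells beside the tumour mast cells. In such bulk samples, fewer mast cells and less RNA per mast cell cannot be told apart. Tumours are named below by group and replicate number, which is a name only.

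The values are log2 expression levels normalised across arrays, and array medians ran from 1.79 to 1.91. The median of the whole table was 1.84, and a Transcript cluster was tested when at least 30% of the tumours of either group exceeded this median, as for 19246 of 32391. MS4A2, FCER1A, SYK and ENPP3 passed. LYN did not, and its tests come from a fit over all 32391 Transcript clusters. The mean correlation of an array with the others lay between 0.787 and 0.895, and no array repeated another. Of 22 mast cell markers listed without the 5 genes, 14 were tested, 6 (the tryptase genes TPSAB1, TPSB2, TPSD1 and TPSG1 among them) had no symbol on the platform, and the mean log2 level of the 14 ran from 2.18 to 4.44 in the M MCTs and from 2.07 to 4.95 in the NM MCTs.

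The receptor chains were the genes that varied most between tumours. MS4A2 ran from 1.86 to 6.71 with a median of 2.48 in the M MCTs, and from 1.65 to 5.48 with a median of 2.62 in the NM MCTs. All 18 M MCTs and 13 of 16 NM MCTs lay above the table median, and the ranges of the groups overlapped almost fully. Over the 34 tumours, 95.3% of the tested Transcript clusters had a smaller SD. FCER1A ran from 1.36 to 6.77 with a median of 2.19 in the M MCTs, and from 1.31 to 7.18 with a median of 1.72 in the NM MCTs. The alpha chain was above the table median in 14 of 18 M MCTs and 7 of 16 NM MCTs, so that the lower part of the NM group lay at the level of the table's dim signals while its upper part reached the highest values measured. Over the 34 tumours, 97.8% of the tested Transcript clusters had a smaller SD.

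The kinases were far more even. SYK ran from 1.76 to 3.18 with a median of 2.08 in the M MCTs, and from 1.71 to 2.54 with a median of 2.06 in the NM MCTs. Of the tested Transcript clusters, 47.1% had a smaller SD, which places SYK in the middle of the table. LYN ran from 1.34 to 2.08 with a median of 1.65 in the M MCTs, and from 1.24 to 1.99 with a median of 1.55 in the NM MCTs. It exceeded the table median in only 4 of 18 M MCTs and 2 of 16 NM MCTs, and its values rest on low signal. ENPP3 took a place between the chains and the kinases in spread. It ran from 1.54 to 3.35 with a median of 2.23 in the M MCTs, and from 1.56 to 4.04 with a median of 1.94 in the NM MCTs, with 15 of 18 M MCTs and 10 of 16 NM MCTs above the table median.

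**Figure D1:**
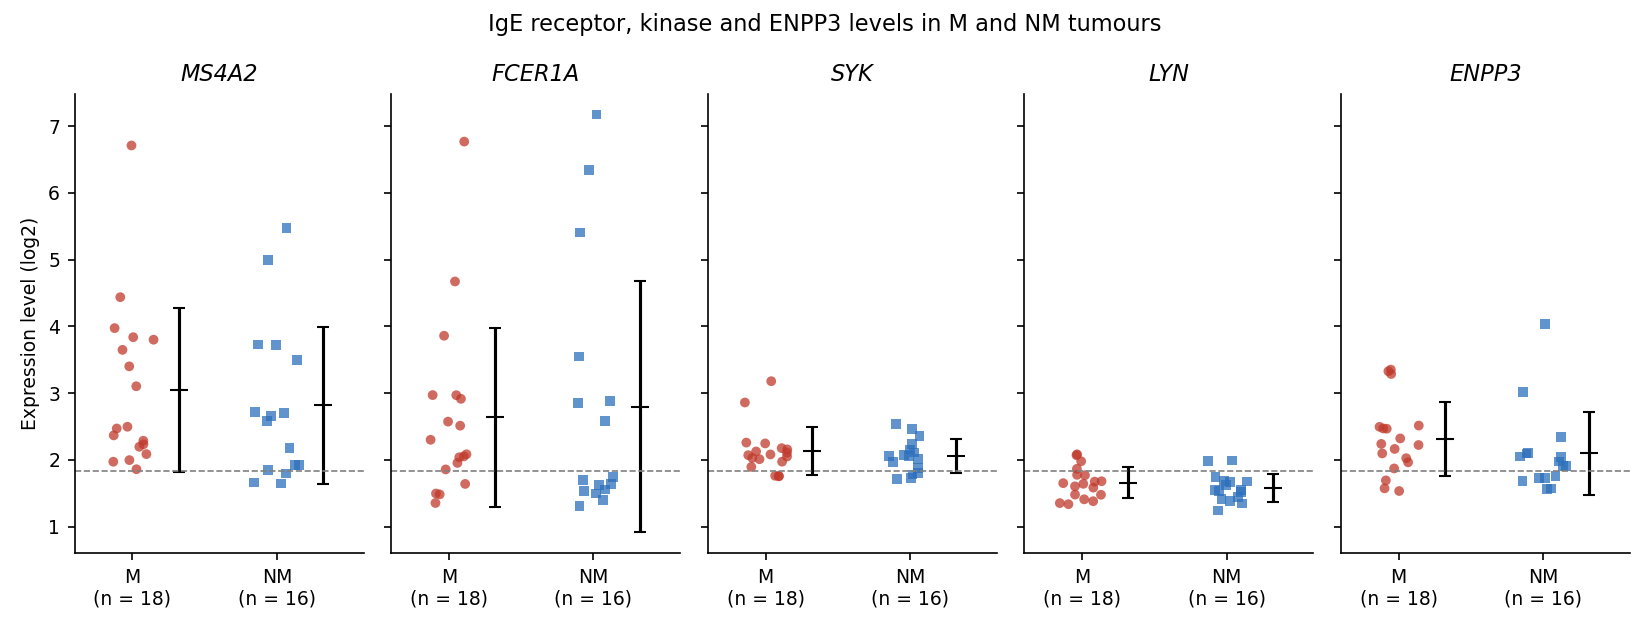
Log2 expression level (y axis) of the 5 measured genes in M and NM MCTs, with 1 point per tumour, the mean and SD beside the points, and the median of the whole table (1.84) as a dashed line. MS4A2 and FCER1A reach 6.71 and 6.77 in the M MCTs and 5.48 and 7.18 in the NM MCTs, while LYN peaks at 2.08.

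A few tumours held the highest levels of both receptor chains. In the M MCTs, M 7 (a Golden Retriever) had MS4A2 at 6.71 and FCER1A at 6.77, and M 2 (a Cross-breed) had 4.44 and 4.67. In the NM MCTs, NM 12 (a Labrador Retriever) had 5.48 and 7.18, and NM 6 (a Cross-breed) had 5.00 and 6.34. NM 14 (a Miniature Schnauzer) stood out in FCER1A only, at 5.41. Its MS4A2 level of 3.73 was below those of M 10 (3.97), M 12 (3.84) and M 16 (3.80). High receptor levels were thus found in tumours of either outcome. The kinases and ENPP3 were high in some of the same tumours: SYK was highest in M 2 at 3.18 and in M 7 at 2.86, LYN in M 2 at 2.08, and ENPP3 in NM 12 at 4.04 and in M 7 at 3.35. NM 6, with the third highest FCER1A level of all tumours, had SYK at 2.08 and LYN at 1.55, both inside the bulk of their ranges. At the other end, NM 8 (a Golden Retriever) had the lowest MS4A2 and FCER1A levels of all tumours, 1.65 and 1.31. Its array had a mean correlation of 0.798 with the others, near the lowest of all arrays (0.787).

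The first comparison asked whether the levels differed with metastasis. None of the 5 genes differed between the groups beyond the spread among tumours. MS4A2, the beta chain, averaged 3.05 ± 1.23 in M MCTs and 2.82 ± 1.18 in NM MCTs (SD, n = 18 and 16), an M minus NM difference of 0.23 (SE 0.40, 95% interval -0.58 to 1.04; limma adjusted p = 1.00, unadjusted p = 0.564). This is 1.17-fold, with an interval from 0.67-fold to 2.06-fold. FCER1A averaged 2.64 ± 1.34 in M MCTs and 2.80 ± 1.88 in NM MCTs, a difference of -0.16 (SE 0.54, 95% interval -1.25 to 0.93; adjusted p = 1.00, unadjusted p = 0.767). The fold intervals of the receptor chains are wide: that of FCER1A runs from 0.421-fold to 1.90-fold, M over NM.

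For both chains the direction depended on the summary used. The median of MS4A2 was 0.14 lower in the M MCTs although its mean was 0.23 higher, and the median of FCER1A was 0.47 higher in the M MCTs although its mean was 0.16 lower. Single tumours also moved the estimates. The MS4A2 difference was 0.02 without M 7 and 0.41 without NM 12, and the FCER1A difference was -0.40 without M 7 and 0.13 without NM 12, with 0.08 without NM 6 and 0.01 without NM 14. No sign can be given to either difference.

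SYK, LYN and ENPP3 gave narrower intervals around 0. SYK averaged 2.14 ± 0.36 in M MCTs and 2.06 ± 0.25 in NM MCTs, a difference of 0.08 (SE 0.11, 95% interval -0.14 to 0.30; adjusted p = 1.00, unadjusted p = 0.464). LYN averaged 1.66 ± 0.23 in M MCTs and 1.59 ± 0.21 in NM MCTs, a difference of 0.07 (SE 0.08, 95% interval -0.08 to 0.23; adjusted p = 0.999 over all Transcript clusters, unadjusted p = 0.350). ENPP3 averaged 2.31 ± 0.55 in M MCTs and 2.10 ± 0.63 in NM MCTs, a difference of 0.22 (SE 0.20, 95% interval -0.18 to 0.62; adjusted p = 1.00, unadjusted p = 0.279). ENPP3 had the smallest p of the genes above the filter, and without NM 12 its difference was 0.35 with an unadjusted p of 0.0414 and an adjusted p of 0.999. On the fold scale the intervals reached at most 1.23-fold for SYK, 1.17-fold for LYN and 1.53-fold for ENPP3. LYN averaged below the table median of 1.84, and SYK, at 2.10, not far above it. Levels of dim probe sets understate fold changes, so these narrow intervals do not bound the change in RNA.

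As the background, 0% of the tested Transcript clusters had an adjusted p under 0.05 in this comparison (smallest adjusted p 0.558), and 1.34% had an unadjusted p under 0.05 with a higher and 2.8% with a lower level in the M MCTs. The unpaired t-test named in the study's methods, here with Benjamini-Hochberg adjustment over the same Transcript clusters, also called 0, with 790 at an unadjusted p under 0.05. None of the 5 genes had an unadjusted p under 0.05 in either test. The study itself adjusted by permutation, over a smaller set of detected Transcript clusters, and reported differential expression for some of them. Its procedure was not repeated here. The median difference of the 4 genes above the filter was 0.15, against -0.02 over all Transcript clusters tested. The spread of the groups was compared as well. The SD of FCER1A was 0.54 lower in the M MCTs than in the NM MCTs (two-sided permutation p = 0.316, 100000 resamples), and the SD of SYK was 0.11 higher (p = 0.481). The other 3 genes had differences in SD from -0.07 to 0.05, with p from 0.581 to 0.907, so no difference in spread was detectable with this number of tumours.

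**Figure D2:**
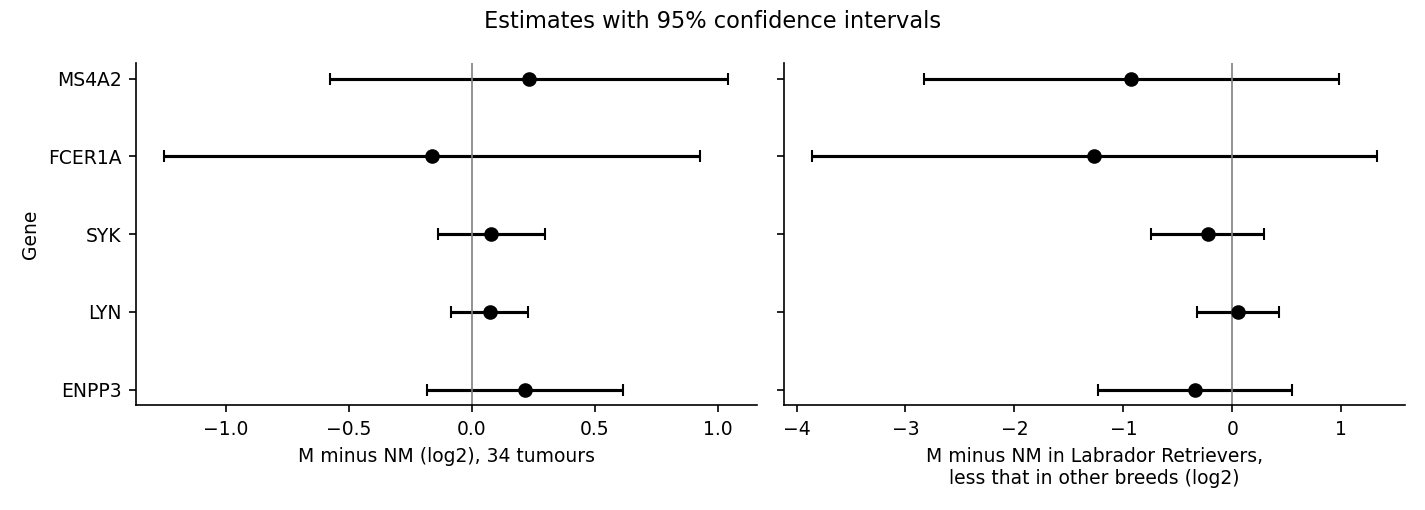
Left, M minus NM difference on the log2 scale for each gene, and right, the same difference in Labrador Retrievers less that in all other breeds, as points with 95% confidence intervals from limma. All 10 intervals include 0, and those of MS4A2 and FCER1A are the widest in both panels.

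The second comparison concerned breed. The tumours came from 12 breeds (cross-breeds counted as 1), of which 6 had more than 1 tumour, 28 tumours in all. Boxers had the lowest mean receptor levels among these breeds. In the 4 Boxer tumours, 1 M and 3 NM, MS4A2 was 1.97 in the M MCT and 1.66, 1.798 and 2.58 in the NM MCTs, and FCER1A was 1.36 in the M MCT and 1.40, 1.53 and 1.64 in the NM MCTs. All 4 FCER1A levels were below the table median. The mean correlation of the array with the others was 0.787 in NM 3, the lowest of all tumours, and 0.793 in M 1. It was 0.852 in NM 1 and 0.864 in NM 2. The part of this measure in the low Boxer levels was not tested beyond its use as a covariate. The 4 Golden Retriever tumours spanned nearly the whole range: MS4A2 was 6.71 in the M MCT and 1.65, 2.18 and 3.73 in the NM MCTs, and FCER1A was 6.77 in the M MCT and 1.31, 2.59 and 3.55 in the NM MCTs. The highest value in this breed was thus its only M MCT.

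The other breeds overlapped with these. In the 10 Labrador Retrievers MS4A2 ran from 1.86 to 5.48 (mean 3.25 ± 1.07) and FCER1A from 1.56 to 7.18 (mean 2.72 ± 1.71). In the 6 Cross-breeds MS4A2 averaged 3.07 ± 1.37 and FCER1A 3.04 ± 2.02, with M 2 and NM 6 well above the other 4 tumours. SYK and LYN, which had the lowest means of the 5 genes, were the most even over breeds. SYK means ran from 2.003 in Whippets to 2.24 in Cross-breeds, and LYN means from 1.502 in Whippets to 1.73 in Staffordshire Bull Terriers. ENPP3 had its highest breed mean in Labrador Retrievers, 2.57 ± 0.75, and its lowest in Boxers, 1.87 ± 0.21. In an F test over the 6 breeds with metastasis group as a term, the adjusted p was 0.930 for MS4A2, 0.928 for FCER1A, 0.978 for SYK, 0.973 for LYN and 0.918 for ENPP3 (limma; unadjusted p from 0.557 to 0.916). The F test thus detected no difference among breeds for any of the 5 genes. It did not compare neighbouring breeds, and breeds of 2 tumours, such as Whippets, give it little power.

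In this test 0.0052% of the Transcript clusters had an adjusted p under 0.05, which was a single one, ALOX15, an arachidonate lipoxygenase gene that is named only because it was the one called (adjusted p = 0.0273). At an unadjusted p under 0.05 the share was 6.17%, and none of the 5 genes was in it.

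**Figure D3:**
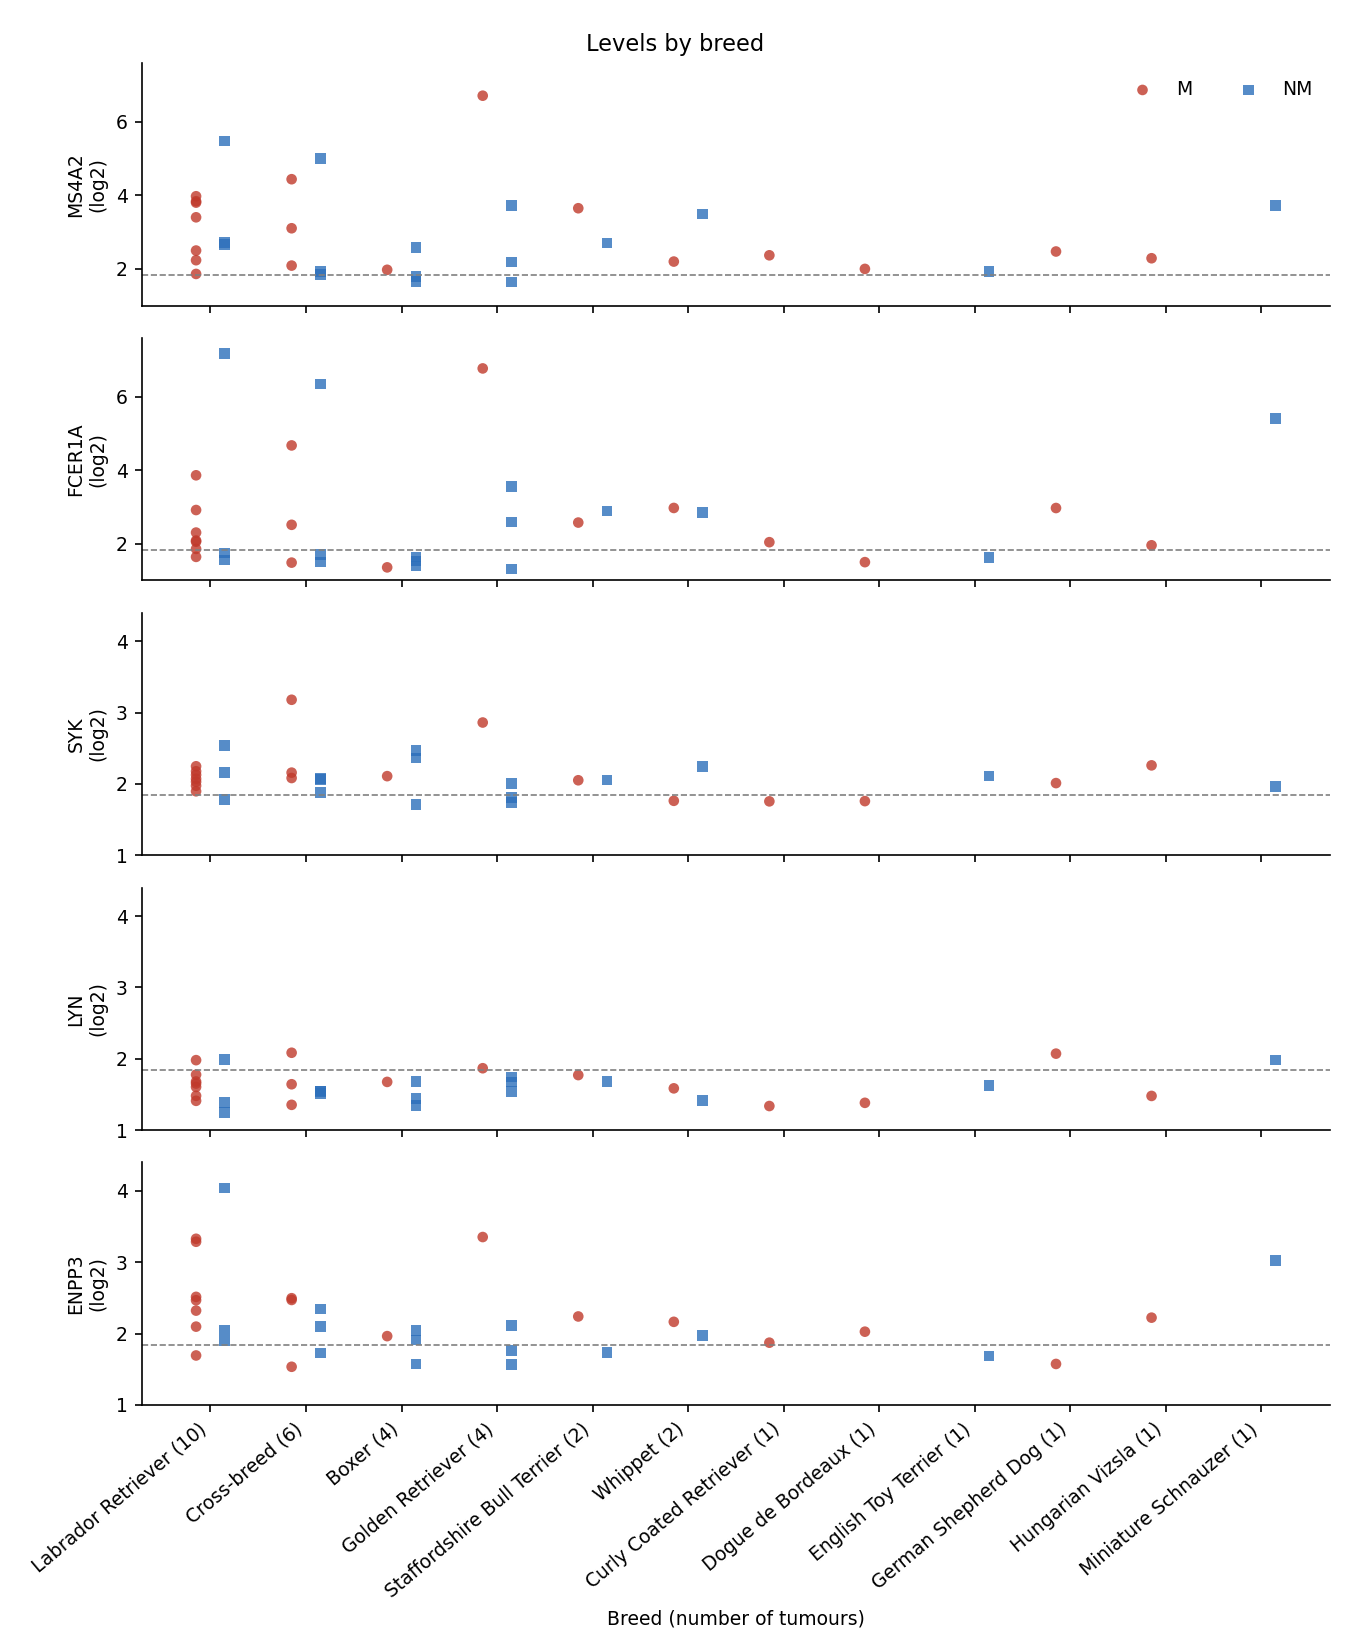
Log2 expression level (y axis) of each gene by breed (x axis, number of tumours in brackets), with M MCTs as red circles left of NM MCTs as blue squares and the table median as a dashed line. The 4 Boxer tumours lie below 1.84 for FCER1A, while Golden Retrievers, Cross-breeds and Labrador Retrievers each hold 1 or more tumours above 4 for MS4A2 and FCER1A.

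Labrador Retrievers were the most frequent breed and could be set against the rest. In Labrador Retrievers, MS4A2 averaged 3.09 ± 0.87 in 7 M MCTs and 3.62 ± 1.61 in 3 NM MCTs, and in all other breeds 3.03 ± 1.45 in 11 M MCTs and 2.63 ± 1.05 in 13 NM MCTs. FCER1A averaged 2.39 ± 0.76 in M MCTs and 3.49 ± 3.19 in NM MCTs of Labrador Retrievers, and 2.80 ± 1.62 in M MCTs and 2.64 ± 1.61 in NM MCTs of the other breeds. The point estimates of M minus NM were thus negative in Labrador Retrievers and positive in the others, but the 3 Labrador NM MCTs held a single high tumour, NM 12, beside FCER1A levels of 1.56 and 1.75. The interaction, the difference in Labrador Retrievers less that in the other breeds, was -0.93 for MS4A2 (SE 0.94, limma unadjusted p = 0.328) and -1.27 for FCER1A (SE 1.27, p = 0.327). It was -0.23 for SYK, 0.05 for LYN and -0.34 for ENPP3, with unadjusted p from 0.378 to 0.784, and the adjusted p of all 5 genes was 1.00. Over all Transcript clusters tested, 0% had an adjusted and 1.47% an unadjusted p under 0.05 for this term. Without NM 12 the term was 0.000627 for MS4A2, 0.58 for FCER1A and 0.34 for ENPP3, so the negative estimates of these 3 genes came with that tumour.

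The 5 genes were then compared with each other across the 34 tumours, in 10 pairs, with two-sided permutation tests of 100000 resamples and Benjamini-Hochberg adjustment over the pairs. The alpha and beta chains of the receptor varied together. MS4A2 and FCER1A had Pearson's r = 0.87 and Spearman's rho = 0.78 (p = 1e-05 each, the smallest these permutations can give; adjusted p = 5e-05 and 0.0001). The relation held within each group, with r = 0.86 in M MCTs and r = 0.93 in NM MCTs (adjusted p = 0.0009 and 0.0001). Without the 2 tumours farthest from the median MS4A2 level, r was 0.79 (p = 1e-05). M 10, a Labrador Retriever, departed from it, with MS4A2 at 3.97, the third highest M value, and FCER1A at 2.05, below the median of the M MCTs.

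ENPP3 followed the chains more loosely. Its r was 0.73 with MS4A2 (rho 0.69, adjusted p = 5e-05; 0.59 without the 2 farthest tumours) and 0.65 with FCER1A (rho 0.52, adjusted p = 0.000867; 0.39 without them). With FCER1A it was r = 0.45 within the M MCTs (adjusted p = 0.0755) and r = 0.84 within the NM MCTs (adjusted p = 0.00175). The difference between these 2 values was not tested. LYN had r = 0.58 with FCER1A (rho 0.61, adjusted p = 0.00123; 0.50 without the 2 farthest tumours) and r = 0.51 with MS4A2 (rho 0.45, adjusted p = 0.00335; 0.42 without them), over a range of low signal.

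The relations of SYK to the receptor chains rested on few tumours. Its r was 0.55 with MS4A2 (adjusted p = 0.00335) and 0.49 with FCER1A (adjusted p = 0.00853), but rho was 0.30 and 0.24 (adjusted p = 0.114 and 0.191). Without the 2 farthest tumours r was 0.33 and 0.26 (adjusted p = 0.0775 and 0.154). The same was seen for the 2 kinases: SYK and LYN had r = 0.35 (adjusted p = 0.0401), rho 0.10 and r = 0.06 without the 2 farthest tumours. SYK and ENPP3 had r = 0.42 (rho 0.34; 0.35 without the 2 farthest, adjusted p = 0.0736). LYN and ENPP3 had r = 0.43, with rho 0.28 (adjusted p = 0.138) and 0.56 without the 2 farthest.

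Each gene was also set against the scores of 8 cell type marker lists, the mean z-score of the tested markers in a tumour, in 40 correlations adjusted together. The 5 genes are in none of the lists. The receptor chains followed the score of the 14 mast cell markers closely. FCER1A had r = 0.91 (rho 0.84, adjusted p = 0.0002, with 0.91 within M and 0.91 within NM). MS4A2 had r = 0.88 (rho 0.83, adjusted p = 0.0002, with 0.86 within M and 0.94 within NM). ENPP3 had r = 0.76 (rho 0.66, adjusted p = 0.000267; 0.63 within M and 0.88 within NM), SYK r = 0.62 (rho 0.47, adjusted p = 0.0061; 0.74 within M and 0.60 within NM) and LYN r = 0.52 (rho 0.44, adjusted p = 0.0136; 0.60 within M and 0.49 within NM). Without the 2 tumours farthest from the median score, these were 0.84 for FCER1A, 0.85 for MS4A2, 0.55 for ENPP3, 0.50 for SYK and 0.40 for LYN (adjusted p = 0.159 for LYN). The score was highest in NM 12 at 2.47 and in M 7 at 1.52, and it was -0.51 in M 10, the tumour whose MS4A2 level was high without FCER1A. Taken singly, 10 of the 14 markers (71.4%) had r over 0.5 with each chain. Over all Transcript clusters tested the share was 3.64% for MS4A2 and 5.13% for FCER1A. CTSG, MITF, GATA1 and LTC4S had -0.23, 0.07, 0.37 and 0.499 with MS4A2. With FCER1A they had -0.22, 0.27, 0.32 and 0.38.

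With the mast cell score regressed out of both genes, no pair of the 5 kept an adjusted p under 0.05. The correlation of MS4A2 with FCER1A was then 0.38 (permutation p = 0.0266, adjusted p = 0.266), that of MS4A2 with ENPP3 0.20, and that of FCER1A with ENPP3 -0.15. The M minus NM differences with this score as a covariate were 0.19 for MS4A2, -0.22 for FCER1A, 0.07 for SYK, 0.07 for LYN and 0.20 for ENPP3, with unadjusted p from 0.133 to 0.417. The score itself averaged 0.01 ± 0.57 in M MCTs and -0.02 ± 0.88 in NM MCTs. Of its markers, ALOX5 passed the level filter only through the M MCTs, and IL1RL1 and CTSG only through the NM MCTs.

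**Figure D4:**
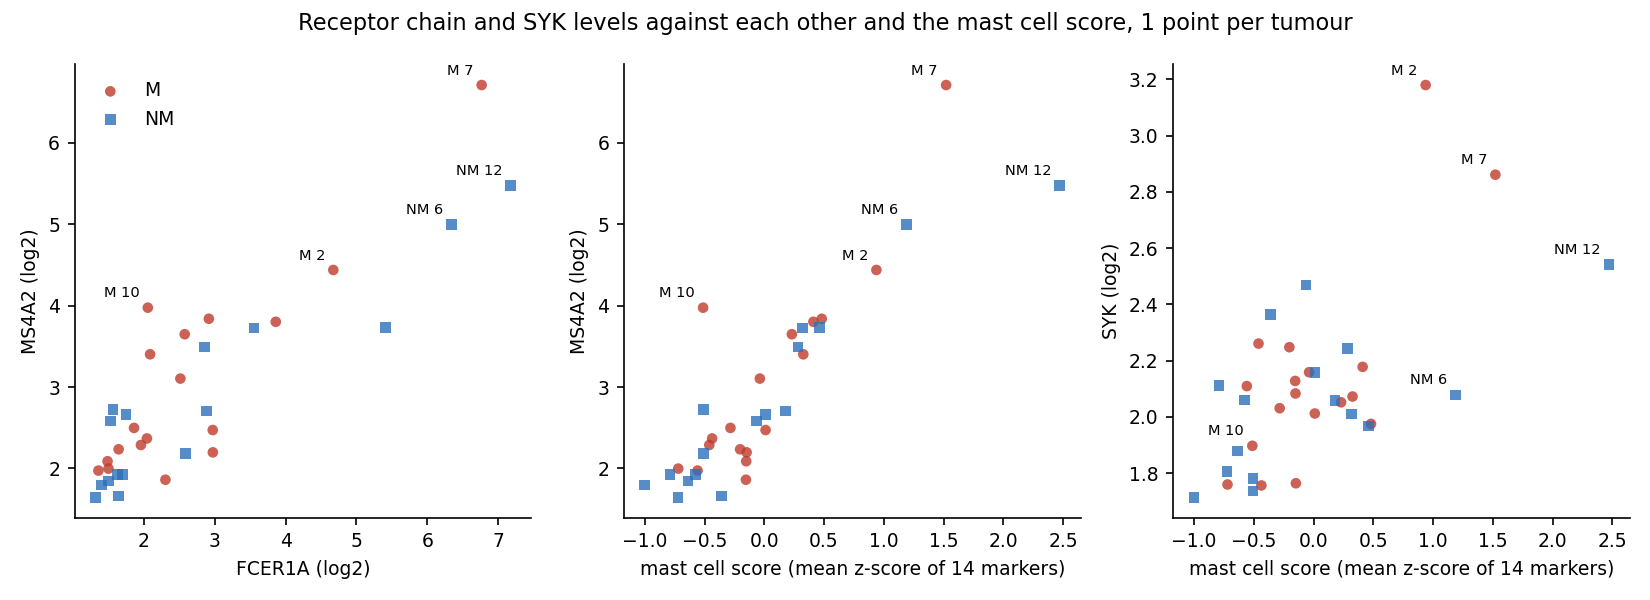
MS4A2 against FCER1A (left, both log2), MS4A2 against the mast cell score (centre) and SYK against the mast cell score (right), with 1 point per tumour, M MCTs as red circles and NM MCTs as blue squares. MS4A2 rises with both measures (r = 0.87 and 0.88) apart from M 10, while SYK is high in M 2 (3.18) and M 7 (2.86) beside a flatter bulk.

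SYK also had a correlation with another marker list beside the mast cells. It had r = 0.58 with the B cell and plasma cell score (rho 0.47, adjusted p = 0.028 and 0.0494). Within M it was r = 0.58 (adjusted p = 0.171) and within NM r = 0.64 (adjusted p = 0.0839), and it was r = 0.22 without the 2 farthest tumours (adjusted p = 0.607). The score of this list was 3.22 in M 2, the tumour with the highest SYK level, against a range of -0.80 to 0.15 in the NM MCTs. Its markers include MS4A1, which passed the level filter only through the M MCTs. SYK also had r = 0.37 with the macrophage score (adjusted p = 0.137) and 0.58 without the 2 farthest tumours (adjusted p = 0.0088). No other correlation of a gene with a score outside the mast cell list had an adjusted p under 0.05 over all tumours by Pearson's r. Within the NM MCTs, ENPP3 had rho = 0.78 with the macrophage score (adjusted p = 0.0047; r = 0.42, adjusted p = 0.323), against rho = -0.09 within the M MCTs. The eosinophil score rests on 1 gene, CCR3.

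The keratinocyte markers differed more between the groups than any other list. Of 24 listed keratinocyte markers, 19 exceeded the level filter in both groups, and 16 of these had an unadjusted p under 0.05 with a lower M mean, against 2.8% of all Transcript clusters tested. None of the 19 had an adjusted p under 0.05, and their median difference was -1.12. The keratinocyte score held all 21 tested markers. Among them DSG1 and DSG3 passed the filter only through the NM MCTs, where they are higher. The score ran from -0.93 to 0.94 in the M MCTs and from -0.98 to 2.09 in the NM MCTs, which is not read as a group difference. The correlations of the 5 genes with this score were from -0.24 to 0.19. The mean correlation of an array with the other arrays was also set against the genes: r was 0.36 for MS4A2 (permutation p = 0.0379, adjusted over the 5 genes 0.190) and from 0.02 to 0.27 for the others, and it was 0.37 for the mast cell score (p = 0.0290). Its part in the receptor levels was not tested beyond its use as a covariate, with which the correlation of MS4A2 and FCER1A was 0.86.

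**Figure D5:**
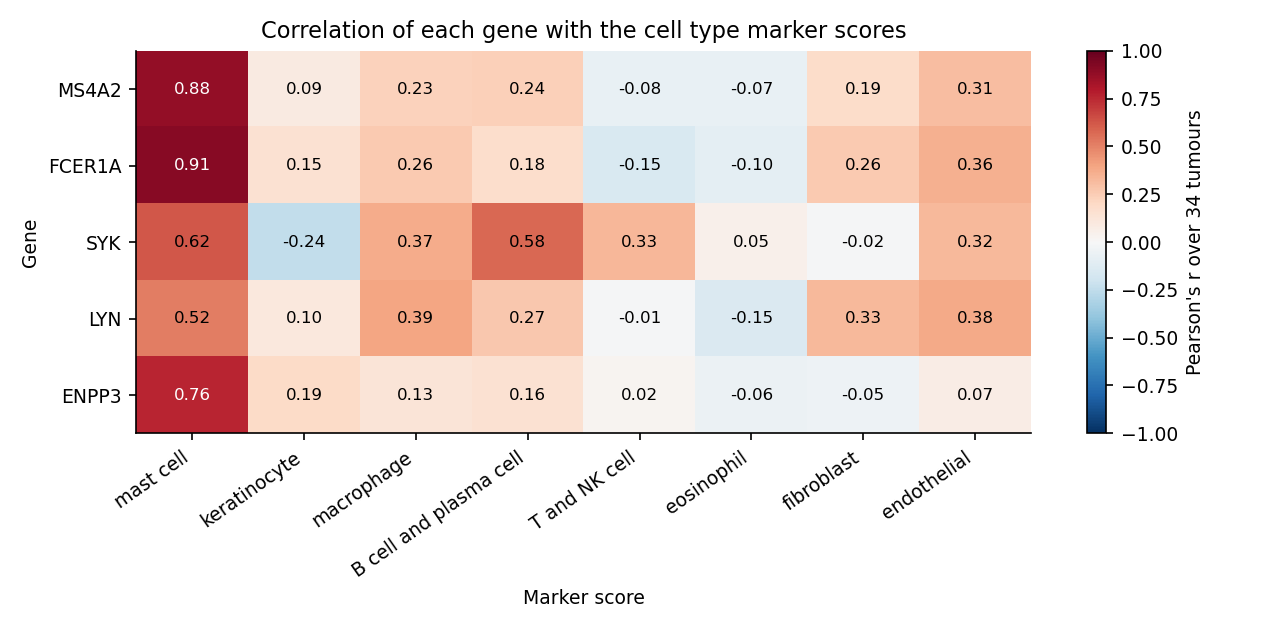
Pearson's r over 34 tumours of each gene (rows) with the scores of 8 cell type marker lists (columns), from -1 in blue to 1 in red. The mast cell column runs from 0.52 for LYN to 0.91 for FCER1A, and outside it the highest value is 0.58, for SYK with the B cell and plasma cell score.

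The genes most alike to each of the 5 were ranked by Pearson's r over the 34 tumours among 10470 genes, as a description. MS4A2 was most like HPGD (0.89), which encodes a prostaglandin-degrading enzyme, CMA1 (0.89), mast cell chymase, KIT (0.89), the stem cell factor receptor, GATA2 (0.89), a transcription factor of mast cells, and RASGRP4 (0.88), a Ras activator of mast cells. FCER1A shared the first 4 of these, HPGD (0.96), CMA1 (0.92), KIT (0.91) and GATA2 (0.89), followed by IL1RL1 (0.89), the IL-33 receptor. FCER1A ranked 7 in the list of MS4A2, and MS4A2 ranked 9 in that of FCER1A. KIT averaged 2.94 ± 0.85 in M MCTs and 2.86 ± 1.06 in NM MCTs, and HPGD differed by -0.04 between the groups (unadjusted p = 0.921).

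SYK had a different set. It was most like LIF (0.82), a cytokine gene, PTPN6 (0.81), the phosphatase SHP-1, which opposes ITAM signalling, LBR (0.79), the lamin B receptor, SLC29A4 (0.75), a monoamine transporter, and ATP2A3 (0.74), a calcium pump of the endoplasmic reticulum. MS4A2 ranked only 188 in its list. The 5 nearest genes of ENPP3 were SLC18A2 (0.80), the vesicular monoamine transporter that loads histamine, BATF (0.74), a transcription factor, LAT (0.73), the adaptor that SYK phosphorylates, MS4A2 (0.73) and GRAP2 (0.73), an adaptor of the same complex. LYN was most like ADPGK, XPO6, ATP10D, RBM14 and KMT2E, with r from 0.71 to 0.72, none of them on the mast cell or signalling lists. In the RefSeq gene order of the German Shepherd assembly UU_Cfam_GSD_1.0, the second protein-coding gene after MS4A2, listed as LOC102155828, had r = 0.86 with MS4A2, while the other measured neighbours of the 5 genes had r from -0.29 to 0.37.

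The rest of the pathway was described from the gene lists. Of 32 adaptors, lipases and effectors downstream of the receptor, 26 were tested, 24 of which exceeded the filter in both groups. None of these 24 had an unadjusted p under 0.05 in either direction, against the 1.34% higher and 2.8% lower of all Transcript clusters. Their median M minus NM difference was 0.01, against -0.02 over all Transcript clusters. The 4 of the 26 with the smallest p were PIK3CG, the calcium channel ORAI1, the calcium release channel ITPR3 and the phospholipase PLCG1. PIK3CG, a phosphoinositide 3-kinase of mast cells, averaged 1.75 ± 0.39 in M MCTs and 1.56 ± 0.21 in NM MCTs. ORAI1 averaged 2.96 ± 0.56 in M MCTs and 3.15 ± 0.37 in NM MCTs, ITPR3 averaged 2.43 ± 0.23 in M MCTs and 2.52 ± 0.26 in NM MCTs, and PLCG1 averaged 2.61 ± 0.35 in M MCTs and 2.74 ± 0.41 in NM MCTs. These 3 had unadjusted p from 0.238 to 0.298. PIK3CG exceeded the table median in 6 of 18 M MCTs and 1 of 16 NM MCTs, so it passed the filter only through the M MCTs, and its p is not given. SOS1, above the median in 6 of 18 M MCTs and 4 of 16 NM MCTs, also passed only through the M MCTs. Across tumours, 11 of the 26 (42.3%) had r over 0.5 with MS4A2 and 9 (34.6%) with FCER1A, against 3.64% and 5.13% of all Transcript clusters tested. Examples, picked after their values were seen, are RASGRP4 (0.88 with MS4A2), PRKCD, a protein kinase C (0.76), GRB2, an adaptor (0.75), and LCP2, the adaptor SLP-76 (0.73).

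Inhibitors of the pathway gave a mixed picture. Of 20 listed, 16 were tested, 15 of which exceeded the filter in both groups. Of these 15, 1 had an unadjusted p under 0.05, with a higher M mean (1.34% of all Transcript clusters), none an adjusted p under 0.05, and the median difference was 0.07. CD300A, an inhibitory receptor of mast cells, averaged 2.65 ± 0.24 in M MCTs and 2.45 ± 0.19 in NM MCTs (difference 0.20, unadjusted p = 0.0134, adjusted p = 1.00). Its level did not follow the receptor chains over the tumours, with r = -0.108 for MS4A2 and -0.095 for FCER1A. SPRED1, a suppressor of Ras signalling, averaged 1.64 ± 0.18 in M MCTs and 1.799 ± 0.21 in NM MCTs (difference -0.16). Both means are below the table median, which it exceeded in 2 of 18 M MCTs and 6 of 16 NM MCTs, so it passed the filter only through the NM MCTs and its p is not given. DOK2, an adaptor that dampens kinase signals, and the ubiquitin ligase CBL followed, at 0.19 and -0.16 with unadjusted p = 0.102 and 0.121. With FCER1A, 5 of the 16 (31.2%) had r over 0.5, against 5.13% of all Transcript clusters tested. With MS4A2, 4 (25%) did, against 3.64%. The 4, named for this r after it was seen, were the lipid phosphatase INPP5D (0.81), the adaptor SLA (0.80), PTPN6 (0.70) and the transmembrane adaptor PAG1 (0.70).

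The related families held few differences. Of 16 other ITAM chains and Fc receptors, 7 exceeded the filter in both groups. Of these 7, 1 had an unadjusted p under 0.05 with a higher M mean (1.34% of all Transcript clusters). It was CD79B, a chain of the B cell receptor complex, at 3.49 ± 0.87 in M MCTs and 3.01 ± 0.37 in NM MCTs (difference 0.48, p = 0.0425, adjusted p = 1.00). CD3D, a chain of the T cell receptor complex, was at 1.85 ± 0.44 in M MCTs and 1.49 ± 0.15 in NM MCTs, and above the table median in 8 of 18 M MCTs and 0 of 16 NM MCTs. It passed the filter only through the group where it is high, so its p is not given. Both are lymphocyte genes and had r of 0.16 (CD79B) and 0.40 (CD3D) with MS4A2. Of the other Src and Syk family kinases, 6 of 9 were tested and none had an unadjusted p under 0.05, with differences from -0.07 for SRC to 0.12 for BLK. In the MS4A family 2 of 14 other members were tested, MS4A1 (CD20 of B cells) at 1.90 ± 0.64 in M MCTs and 1.53 ± 0.17 in NM MCTs, and MS4A15 with a difference of -0.07 (p = 0.365). MS4A1 too passed the filter only through the M MCTs, with 8 of 18 M MCTs and 0 of 16 NM MCTs above the table median, and its p is not given. Neither had an r over 0.5 with MS4A2 (0.17 and -0.35). The ENPP family had 2 of 6 tested, ENPP7 and ENPP2, with differences of -0.06 and 0.07. Every gene of these lists whose p is given had an adjusted p of 1.00 in limma.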

How the data were processed

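RNA from FFPE biopsies of 34 canine MCTs was hybridised to arrays. The table was deposited in log2 units. The authors excluded outlier arrays and then background-corrected, quantile normalised and summarised the others to Transcript clusters by Robust Multichip Analysis (software per the submitters' notes, Affymetrix Expression Console 1.3). Quantile normalisation forces similar distributions on all arrays, and summarised levels of dim probe sets understate fold changes. Array strips are not given in the sources used here. The platform annotation gave 16878 Transcript clusters 1 gene symbol, 289 several and 15224 none.

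Groups, breed and follow-up came from the labels, and age, sex and neutering from the study's description of the dogs. The genes, the gene lists and the tests were chosen with earlier results of these data known. M and NM MCTs were compared with limma 3.58.1 in R 4.3.3 (lmFit, eBayes, Benjamini-Hochberg over all Transcript clusters tested), as were breeds (F test) and the interaction with Labrador Retrievers. Correlations used permutation tests (100000 resamples, scipy and numpy in Python). The number of arrays sets the precision. The limma fits and the permutation test of correlations were tested on simulated data.

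The lists were named for receptor subunits and proximal kinases, downstream adaptors, lipases and effectors, inhibitors, other ITAM chains and Fc receptors, Src and Syk family kinases, the MS4A and ENPP families, and mast cell, keratinocyte, macrophage, B and plasma cell, T and NK cell, eosinophil, fibroblast and endothelial markers. Genes named in the text are the listed genes, up to 4 tested genes of each pathway list with the smallest p, and the 5 genes most alike to each. Beyond these, PRKCD, GRB2, LCP2, INPP5D, SLA and PAG1 were named for their correlation with MS4A2 after it was seen, and ALOX15 as the single breed call. The study's own filter on exon detection and unique hybridisation was not applied. Alternatives were other filters, tests, scalings, covariates, a replicate block and leaving out tumours. Sequences are not printed, because no sequence of these genes was at hand.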

Additional observations from a re-analysis of the deposited data

Results flagged for a closer look

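In 20 groups of a gene within a breed of 4 to 10 tumours, 2 tumours stood apart from the others of their breed by Dixon's test, and chance alone is expected to give about 1 in 20. SYK in the Cross-breeds was 3.18 in M 2, while the nearest of the other 5 tumours had 2.16. In the same tumour MS4A2 was 4.44, FCER1A 4.67, the mast cell score 0.94 and the B cell and plasma cell score 3.22. FCER1A in the Labrador Retrievers was 7.176 in NM 12, while the nearest of the other 9 tumours had 3.86. NM 12 also had the highest ENPP3 level (4.04) and the highest mast cell score (2.47) of all tumours. Their part in these levels was not tested.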

How the results depend on the processing

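No alternative gave any of the 5 genes, or any Transcript cluster, an adjusted p under 0.05 for M against NM (smallest for the 5 genes 0.958). The MS4A2, LYN and ENPP3 differences in mean kept their sign under all alternatives run, although the median of MS4A2 was 0.14 lower in the M MCTs. SYK was -0.00508 with age as a covariate. FCER1A was 0.0558 with the keratinocyte score, 0.0386 with breed, 0.16 without Labrador Retrievers, and -0.40 to 0.13 with single tumours left out. The interaction with Labrador Retrievers was 0.32 for MS4A2, 0.52 for FCER1A, 0.00818 for SYK and 0.16 for ENPP3 with the mast cell score as covariate. With single tumours left out (chosen after seeing the data) it was -1.41 to 0.000627 for MS4A2, -2.23 to 0.58 for FCER1A, -0.72 to 0.34 for ENPP3 and -0.10 to 0.28 for LYN, whose sign turned without NM 11, NM 13 or M 13. The number of Transcript clusters called for breed was 0 without the group term, 0 with the mast cell score (chosen after seeing the data), 2 without the Cross-breeds, and 0 to 64 with single tumours left out, 30 without M 17 and 64 without NM 16. After the mast cell score the correlation was 0.38 for MS4A2 with FCER1A, 0.0152 with SYK, 0.14 with LYN and 0.20 with ENPP3. For FCER1A it was -0.22 with SYK, 0.31 with LYN and -0.15 with ENPP3, for SYK 0.0478 with LYN and -0.11 with ENPP3, and for LYN 0.0609 with ENPP3. After repeated quantile normalisation SYK with LYN was 0.31, and SYK with the B cell and plasma cell score 0.50 (adjusted p no longer under 0.05). ENPP3 with the T and NK cell score was -0.0760 with median scores. The cause of these changes was not tested.

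At an unadjusted p under 0.05, 67.6% of the clusters were lower in the M MCTs, against 48.9% without the level filter (656 higher, 628 lower), 79.1% with the filter at the 75th percentile (87 higher, 330 lower), 55.9% after repeated quantile normalisation and 59.2% with the keratinocyte score (356 lower). In 16 pairs of equal replicate number the correlation of deviations was -0.61 to 0.44, over 0.1 in 3. Such correlations cannot settle whether tumours are paired. The labels name a different dog for each tumour and state no pairing. With the replicate block (32 tumours) 0 were called, 157 were higher and 391 lower at an unadjusted p under 0.05, and the differences were 0.25 for MS4A2, -0.18 for FCER1A, 0.11 for SYK, 0.07 for LYN and 0.23 for ENPP3. None of the genes had a second Transcript cluster to try. LYN lies near the dim end of the table, which limits what its values can show.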

Other observations

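The marker lists of cell types other than mast cells and keratinocytes gave few differences. They are counted over the genes that exceeded the level filter in both groups, beside all Transcript clusters tested, of which 43.9% had a higher M mean, 1.34% had an unadjusted p under 0.05 with a higher and 2.8% with a lower M mean. Of 6 B and plasma cell markers, 6 had a higher M mean, 1 of them (CD79B) at an unadjusted p under 0.05, and the median difference was 0.14. Of 7 T and NK cell markers, 7 had a higher M mean, 0 at an unadjusted p under 0.05, with a median of 0.03. Of 9 fibroblast markers, 0 had a higher M mean, with a median of -0.31 and 1, FBLN1, at an unadjusted p under 0.05 (3.38 ± 0.83 in M MCTs and 4.01 ± 0.90 in NM MCTs, p = 0.0363). The 4 macrophage markers and the 5 endothelial markers had none. No marker of these lists had an adjusted p under 0.05 in limma. Among 11 mast cell markers, MITF, a transcription factor, was the only one with an unadjusted p under 0.05 (1.93 ± 0.24 in M MCTs and 2.21 ± 0.47 in NM MCTs, p = 0.0305, adjusted p = 1.00). It had r = 0.07 with MS4A2 and 0.27 with FCER1A, while SRGN, the core protein of granule proteoglycans, had 0.81 and 0.79.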
